A study of Mus musculus with 8 samples.

Results

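Small heat-shock proteins and Bag3 are treated here as 1 group of 8 mouse genes: Cryab, Hspb1, Hspb2, Hspb3, Hspb6, Hspb7, Hspb8 and Bag3. A probe was taken for a member when its RefSeq accession belongs to that gene, which gave 10 probes for 8 of the 22909 genes with a named probe. Hspb6 and Hspb7 had 2 probes each, and the brighter one over 8 arrays stands for the gene. All 10 probes were well above background on all 8 arrays and no member spot was saturated, so no member was lost to the filter on dim probes.

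The small heat-shock proteins share an alpha-crystallin domain and bind unfolding proteins without using ATP, which keeps those proteins from aggregating until other chaperones refold or remove them. Heart and skeletal muscle hold more kinds of them than most tissues. Alpha-B crystallin (Cryab) and HSP27 (Hspb1) protect desmin, titin and actin filaments, and HSP20 (Hspb6) is a substrate of protein kinase A. The protein cvHSP (Hspb7) modulates the assembly of actin filaments in the mouse heart, and Hspb2 and Hspb3 form a muscle complex of their own. HSP22 (Hspb8) pairs with the co-chaperone BAG3, which couples it to Hsp70 and the ubiquitin ligase CHIP, so that damaged filamin is taken to the autophagosome. Mutations in human CRYAB and BAG3 are known causes of cardiomyopathy.

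The data are 8 one-colour Agilent arrays of ventricular RNA from mice with a homozygous knock-in (KI, TNNT2 ΔK210/ΔK210) that deletes lysine 210 of cardiac troponin T, a model of dilated cardiomyopathy, and from wild-type (WT) mice. There were 4 groups of 2 arrays each: KI at 1 week, WT at 1 week, KI at birth (0 days old) and WT at birth. RNA of 3 ventricles was combined in a sample, the series' design text names the left ventricle where the sample labels say ventricle, and no strain is named. Because the sources do not say whether the 2 samples of a group came from separate pools of animals, p-values measure the spread between these samples, which may be technical. The comparisons ask how the genes differ between KI and WT at each age, and how they differ between 1 week and birth.

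The sample name of 3 of the 4 arrays at 1 week is recorded in 2 ways, and so is the genotype of 2 of them. In the deposited table of processed values every column equals the signal of 1 scanner file. For those 3 arrays the column's sample name is not that of the scanner file. With the arrays called A, B, C and D in slide order, the value table makes B and C the KI arrays and A and D the WT arrays. The scanner-file record makes C and D the KI arrays and A and B the WT arrays. Both records name the same samples at birth. Values below use the value-table record, with the scanner-file record beside it wherever genotype at 1 week enters. The mean of the 4 arrays of an age is the same in both.

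Array D stood apart from the other arrays at 1 week. The 75th percentile of its probe signals was 342, against 468 to 523 on A, B and C and 440 to 466 at birth, and it was set apart on the second principal component, which held 11.7% of the variance. The first component held 60.8% and parted the 2 ages. The share of probes well above background was 58.9% to 63.1%. All 8 arrays were on 1 slide, with those of 1 week in one row and those of birth in the other, so that age and slide row cannot be told apart, and at birth genotype and slide column cannot be told apart. The tissue label was checked against 7 cardiomyocyte markers: all were well above background on every array, and their summed level was 2063 to 2173 times the 75th percentile signal in KI at 1 week, 2269 to 2339 in WT at 1 week, 2053 to 2055 in KI at birth and 2118 to 2219 in WT at birth. Single cardiomyocyte markers went different ways on D. Among the 1-week arrays the log2 level of Pln was 5.22 on D, against 5.74 to 6.11 on A, B and C. Actc1 and Tnni3 were also lowest on D, at 8.32 against 8.48 to 8.72 and at 7.94 against 8.03 to 8.13. Myh6, Myl2, Myl3 and Ryr2 were highest on D, and the part of these genes in the members' values was not tested. Markers of atrium and fat differed among the arrays at 1 week. The mean log2 level of the 5 atrial markers was 3.97 on B, 3.86 on C, 0.66 on A and 4.62 on D, against 3.28 to 3.95 at birth. That of the 6 adipocyte markers was 0.82 on B, 0.93 on C, -2.32 on A and 2.11 on D, against -2.74 to -2.50 at birth.

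Small heat-shock protein genes are known targets of heat-shock factors, which bind repeats of the unit GAA and its complement, and the sequence before the start of a gene is shown for the 4 members that passed a test between ages below. RefSeq's promoter table (GRCm38.p6) holds 6 of the 8 members in 7 entries, with 2 starts for Hspb6. Cryab and Hspb2 are named only. Each line gives the 250 bases before the start on the gene's own strand, with matches to GAANNTTC in capitals.
Hspb1, chr5:135887669-135887918 (plus strand): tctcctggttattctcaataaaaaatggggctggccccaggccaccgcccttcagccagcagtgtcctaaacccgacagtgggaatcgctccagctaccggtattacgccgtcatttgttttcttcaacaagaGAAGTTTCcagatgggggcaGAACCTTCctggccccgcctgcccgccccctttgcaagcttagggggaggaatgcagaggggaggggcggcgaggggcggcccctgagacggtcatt
Hspb6, first start, chr7:30552290-30552539 (plus strand): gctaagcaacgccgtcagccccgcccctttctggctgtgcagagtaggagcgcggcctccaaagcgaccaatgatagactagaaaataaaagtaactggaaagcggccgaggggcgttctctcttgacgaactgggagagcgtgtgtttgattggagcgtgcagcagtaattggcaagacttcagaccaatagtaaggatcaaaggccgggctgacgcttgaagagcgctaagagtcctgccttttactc
Hspb8, chr5:116422865-116423114 (minus strand): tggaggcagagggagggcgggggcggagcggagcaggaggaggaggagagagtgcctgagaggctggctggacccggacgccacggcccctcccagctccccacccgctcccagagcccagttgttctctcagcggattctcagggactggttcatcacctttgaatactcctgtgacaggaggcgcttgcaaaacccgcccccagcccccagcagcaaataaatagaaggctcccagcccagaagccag
Bag3, chr7:128523333-128523582 (plus strand): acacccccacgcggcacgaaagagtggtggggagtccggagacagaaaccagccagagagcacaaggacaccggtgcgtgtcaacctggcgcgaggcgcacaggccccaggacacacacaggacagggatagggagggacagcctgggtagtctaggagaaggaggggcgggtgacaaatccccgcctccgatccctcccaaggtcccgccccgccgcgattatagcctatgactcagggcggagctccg

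The windows were searched for GAANNTTC and TTCNNGAA, each of which reads the same on both strands. The window of Hspb1 held GAANNTTC 2 times, as GAAGTTTC at 117 to 110 bases and as GAACCTTC at 97 to 90 bases before the start. The window before the second start of Hspb6, which lies within the gene, held the same 8 letters as the first of these at 120 to 113 bases, and the window of Hspb3 held GAATTTTC at 224 to 217 bases. Those 2 matches are shown with their neighbouring bases.
Hspb6, second start, chr7:30553170-30553199 (plus strand): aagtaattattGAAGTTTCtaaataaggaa
Hspb3, chr13:113663882-113663911 (minus strand): ctccccgaatgGAATTTTCaggcagaggga

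The windows of Hspb7, Hspb8, Bag3 and the first start of Hspb6 held neither form, and none of the 7 windows held 3 such units in a row, alternating and 2 bases apart. Of all 32851 promoter windows of the same length, 6.69% held GAANNTTC, 7.17% held TTCNNGAA, 12.8% held either and 0.466% held 3 units in a row. A match is a run of letters, and binding was not measured.

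Between birth and 1 week the members went different ways. Hspb1 was lower at 1 week by 0.97 log2 units, Hspb6 was higher by 0.92 and Hspb8 by 1.06, and the other 5 did not pass the test. The test was limma on all 8 arrays with a mean for each group, p-values were adjusted over 15744 genes by the Benjamini-Hochberg method, and the threshold was 0.05. So 3 of 8 members were called, 2 higher and 1 lower at 1 week, where 29.3% of all tested genes were called, 14.8% higher and 14.5% lower. The members' median difference was -0.01, against -0.03 for all tested genes. Levels are log2 signals relative to the 75th percentile of the array's own probes, so a level of 1 means 2 times that percentile, and levels of different probes are not set against each other.

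**Figure D1:**
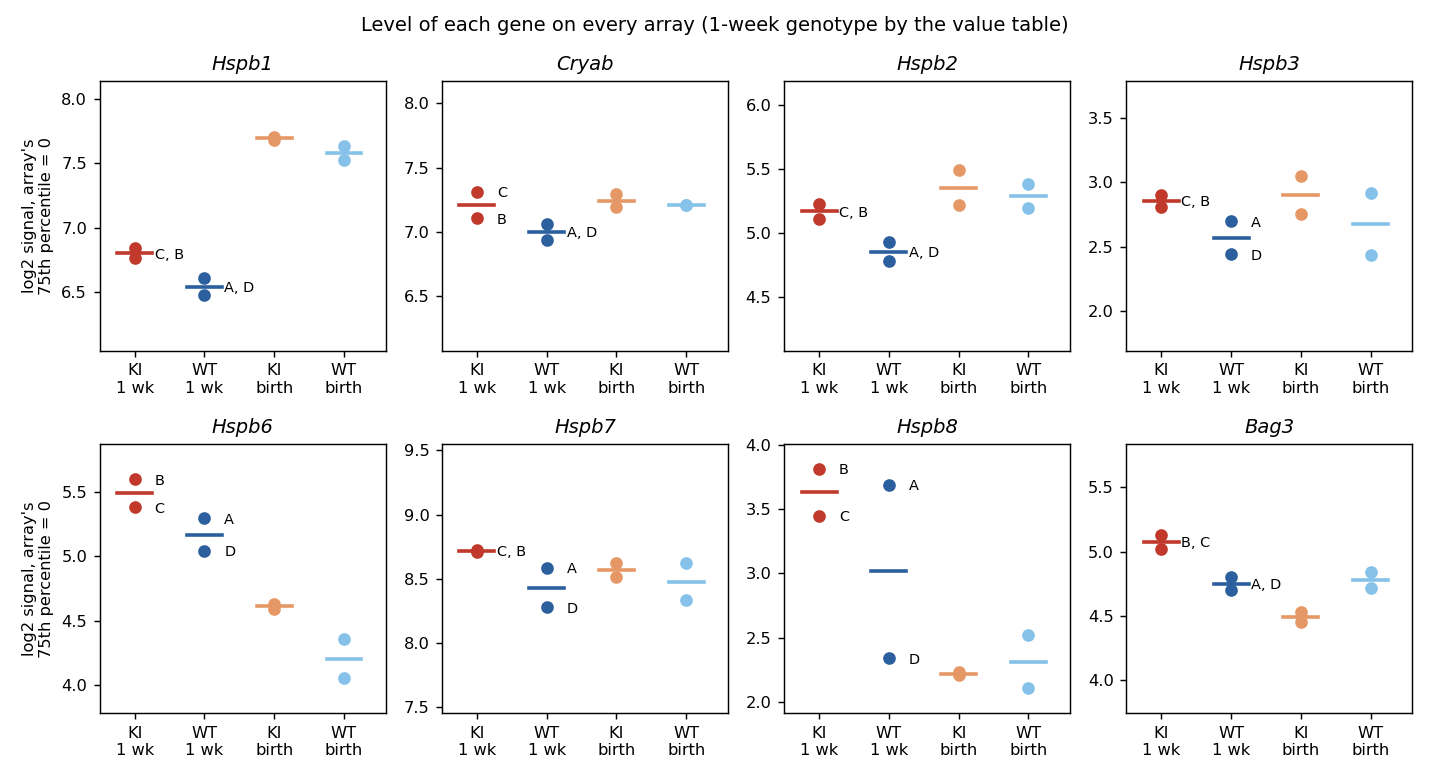
Log2 signal (vertical axis, array's 75th percentile at 0) of each of the 8 genes on every array, with groups on the horizontal axis and 1-week genotype by the value table. Points are arrays, bars are means of 2 arrays and letters name the 1-week arrays. Every 1-week point of Hspb1 lies below every point of birth, every 1-week point of Hspb6 lies above, and array D sits below A, B and C for all 8 genes.

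Hspb1, the HSP27 gene, had levels of 6.76 on B and 6.84 on C in KI ventricles at 1 week, and of 6.61 on A and 6.47 on D in WT ventricles at 1 week. At birth it had 7.68 and 7.71 in KI ventricles and 7.63 and 7.53 in WT ventricles. The 2 ages did not overlap. The mean was 6.67 ± 0.16 at 1 week and 7.64 ± 0.08 at birth (SD, n = 4 each), a difference of -0.97 ± 0.09 (SE), or 1.95-fold lower at 1 week, with an adjusted p of 0.000467 (limma). The exact two-sided permutation test of 4 against 4 arrays gave p = 0.0286, the smallest it can give. All arrays of 1 week were lower for 19.4% of tested genes. Hspb1 fell in each genotype as well, by 0.89 in KI (adjusted p = 0.00598, limma) and by 1.04 in WT (adjusted p = 0.00283, limma). With the scanner-file record the differences were -1.04 in KI (adjusted p = 0.00888, limma) and -0.90 in WT (adjusted p = 0.0145, limma).

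Hspb6, the HSP20 gene, had levels of 5.60 on B and 5.38 on C in KI at 1 week, and of 5.30 on A and 5.04 on D in WT at 1 week. At birth it had 4.63 and 4.59 in KI and 4.35 and 4.05 in WT. The ages did not overlap. The mean was 5.33 ± 0.23 at 1 week and 4.41 ± 0.26 at birth (SD, n = 4 each), a difference of +0.92 ± 0.12 (SE), or 1.90-fold higher at 1 week (adjusted p = 0.00173, limma). The exact two-sided permutation test gave p = 0.0286, again its smallest possible value. All arrays of 1 week were higher for 16.2% of tested genes. The rise was 0.88 in KI (adjusted p = 0.0185, limma) and 0.97 in WT (adjusted p = 0.00985, limma). Taken by scanner files, the difference in KI was 0.60 and did not pass (adjusted p = 0.0701, limma), while that in WT was 1.24 (adjusted p = 0.00906, limma).

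The second, dimmer probe of Hspb6 differed from the first on array D. It read 2.60 on B and 1.92 on C in KI at 1 week, and 2.35 on A and 0.55 on D in WT at 1 week, against 1.54 and 1.62 in KI at birth and 1.33 and 1.13 in WT at birth. Array D was below all 4 birth arrays on this probe and above them all on the brighter one. Its difference of means between the ages was +0.45, and with the mean of the 2 probes in place of the brighter one the difference was +0.69 and did not pass (adjusted p = 0.0652, limma). By the value table Hspb6 passed over both genotypes in 16 of 17 alternatives. It passed in KI in 13 of 18, with an adjusted p of up to 0.197 (limma), and in WT in 16 of 18, with up to 0.238 (limma). In the fit by the scanner-file record Hspb6 passed over both genotypes in all 17 alternatives, with a highest adjusted p of 0.0384 (limma).

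Hspb8, the HSP22 gene and BAG3's partner, had levels of 3.81 on B and 3.45 on C in KI at 1 week, and of 3.69 on A and 2.34 on D in WT at 1 week. At birth it had 2.21 and 2.23 in KI and 2.52 and 2.11 in WT. Arrays A, B and C lay above every birth array, and D lay among the birth arrays. The mean was 3.32 ± 0.67 at 1 week and 2.27 ± 0.18 at birth (SD, n = 4 each), a difference of +1.06 ± 0.29 (SE), or 2.08-fold higher at 1 week (adjusted p = 0.0327, limma). The exact two-sided permutation test gave p = 0.0571. Without array D, which leaves A as the only WT array of 1 week by the value table, the difference was +1.39 ± 0.15 (SE). The call was lost in 7 of 17 alternatives, 6 of which leave out an array other than A or D, and the adjusted p ranged from 0.00251 to 0.101 over the arrays left out in turn.

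Within the genotypes the call of Hspb8 depended on the record. By the value table the difference was +1.41 ± 0.41 (SE) in KI (adjusted p = 0.0776, limma) and +0.70 ± 0.41 in WT (adjusted p = 0.252, limma). By the scanner files it was +0.67 in KI (adjusted p = 0.219, limma) and +1.44 in WT (adjusted p = 0.0402, limma), a call kept in 11 of 18 alternatives, with an adjusted p of up to 0.178. In each record the genotype that holds array D had the smaller value. Without D, by the value table, the difference was 1.41 in KI and 1.38 in WT, where A is then the only WT array of 1 week. By the scanner files without D it was 1.23 in KI, where C is then the only KI array of 1 week, and 1.44 in WT. The spread of a single array is taken from the other groups.

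Bag3, the co-chaperone that joins Hspb8 to Hsp70, had levels of 5.13 on B and 5.02 on C in KI at 1 week, and of 4.81 on A and 4.70 on D in WT at 1 week. At birth it had 4.53 and 4.45 in KI and 4.84 and 4.71 in WT. Over both genotypes the difference between the ages was +0.28 ± 0.09 (SE) and did not pass (adjusted p = 0.0518, limma). By the value table it did pass in 4 of 17 alternatives, with a lowest adjusted p of 0.0143 (limma). The KI arrays of 1 week by the value table lay above the KI arrays of birth, as for 28.0% of tested genes. In WT the ages overlapped. In KI Bag3 rose by 0.58 ± 0.12 (SE) with an adjusted p of 0.0292 (limma), while in WT the difference was -0.02 (adjusted p = 0.902, limma). In the scanner-file record Bag3 did not pass in KI, at +0.37 (adjusted p = 0.179, limma), nor in WT, at +0.19 (adjusted p = 0.488, limma). The call in KI was also lost in 8 of the 18 other alternatives, among them the omission of either KI array of 1 week, and its adjusted p ranged up to 0.159.

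The remaining 4 members did not pass in any of the 3 comparisons between ages. Cryab, the alpha-B crystallin gene, had 7.11 on B and 7.31 on C in KI at 1 week and 7.06 on A and 6.94 on D in WT at 1 week, against 7.19 and 7.29 in KI at birth and 7.21 and 7.21 in WT at birth. Hspb2 had 5.11 on B and 5.23 on C in KI at 1 week and 4.93 on A and 4.78 on D in WT at 1 week, against 5.49 and 5.22 in KI at birth and 5.38 and 5.19 in WT at birth. In both, the arrays of KI overlapped between ages and those of WT were lower at 1 week. Both WT arrays of 1 week were lower for 33.6% of tested genes, and for 35.5% by the scanner files. The difference over both genotypes was -0.12 ± 0.09 (SE) for Cryab (adjusted p = 0.353, limma) and -0.31 ± 0.11 for Hspb2 (adjusted p = 0.0673, limma). By the value table Hspb2 passed over both genotypes in 2 of 17 alternatives, with a lowest adjusted p of 0.0258 (limma). In WT Hspb2 passed in 1 of 18. RefSeq places Hspb2 within the annotated span of Cryab, and whether either probe also reads the neighbour's transcripts was not tested.

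Hspb3, the partner of Hspb2 in muscle, had 2.81 on B and 2.90 on C in KI at 1 week and 2.70 on A and 2.44 on D in WT at 1 week, against 3.05 and 2.75 in KI at birth and 2.91 and 2.43 in WT at birth. The ages overlapped in both genotypes, and the lowest of all 8 arrays was a WT array of birth. Hspb7 had 8.71 on B and 8.73 on C in KI at 1 week and 8.59 on A and 8.28 on D in WT at 1 week, against 8.62 and 8.51 in KI at birth and 8.62 and 8.33 in WT at birth. The difference over both genotypes was -0.07 ± 0.14 (SE) for Hspb3 and +0.05 ± 0.11 for Hspb7, with 95% intervals of -0.41 to 0.26 and -0.22 to 0.32. The second probe of Hspb7 read 5.02 on B, 4.62 on C, 4.81 on A and 3.75 on D, against 4.58 to 4.72 at birth, so it too was lowest on D.

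**Figure D2:**
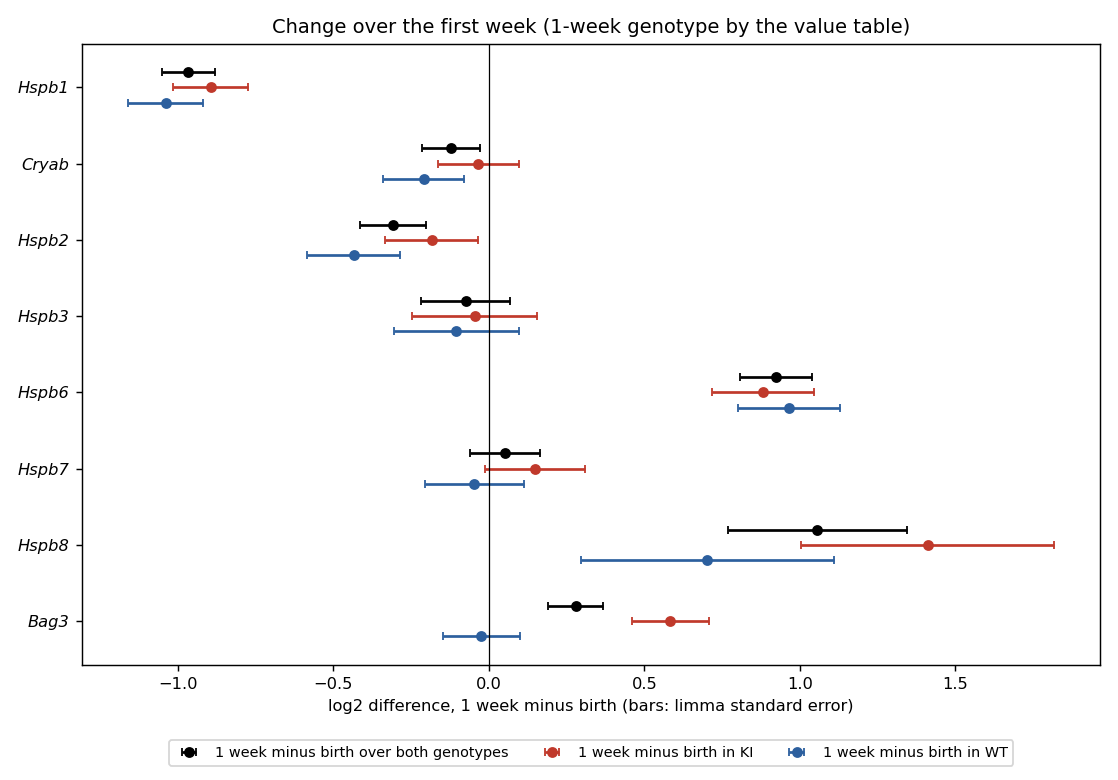
Log2 difference, 1 week minus birth (horizontal axis), for each gene over both genotypes, in KI and in WT, with 1-week genotype by the value table. Points are limma estimates and bars their standard errors. Hspb1 lies near -1 and Hspb6 near +0.9 in all 3, Hspb8 has the longest bars, and Bag3 is near +0.6 in KI and near 0 in WT.

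In KI alone 3 of 8 members were called (Hspb1, Hspb6 and Bag3), where 10.6% of all tested genes were called, and in WT alone 2 of 8 (Hspb1 and Hspb6), where 19.0% were. Without array D the counts were 4 in KI, which adds Hspb8, and 3 in WT, which adds Hspb8, where 12.8% of all tested genes were called in KI and 10.3% in WT. Over both genotypes the count without D was 3, where 25.2% were called. With other single arrays left out, the count in KI was 0 without B, 1 without C or either KI array of birth and 4 without A, and the count in WT was 1 without the second WT array of birth. The number of all tested genes called in KI moved as well, and was 560 without B, 647 without C, 873 and 633 without the KI arrays of birth and 2022 without A, against 1670 with all arrays. Each fit without an array left 1 array in that array's group, and its spread was taken from the other groups. With all arrays, by the scanner-file record, the counts were 3 over both genotypes, where 30% of tested genes were called. They were 1 in KI (Hspb1) and 3 in WT (Hspb1, Hspb6 and Hspb8), where 15.3% of tested genes were called in KI and 12.7% in WT. KI and WT were not shown to differ in their change with age for any member, as the test of that difference below passed for none.

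Markers of other cell types also differed between the ages, and in whole tissue more cells of a type and more RNA per cell cannot be told apart. The summed level of 6 fibroblast markers was 294 to 321 in KI and 289 to 397 in WT at 1 week, against 149 to 183 in KI and 165 to 167 in WT at birth. That of 6 endothelial markers was 51.5 to 58.2 in KI and 56.5 to 69.7 in WT at 1 week, against 42.5 to 42.6 in KI and 42.1 to 43.9 in WT at birth, and that of 5 macrophage markers was 10.6 to 11.5 in KI and 12.6 to 14.2 in WT at 1 week, against 7.58 to 8.50 in KI and 6.79 to 7.87 in WT at birth. All markers of these 3 lists were well above background on every array. Single markers did not all follow the sums. The log2 level of the fibroblast marker Tcf21 was lower at 1 week, at 0.43 to 0.74 against 0.83 to 0.98 at birth. The ages overlapped for the endothelial marker Emcn, at 3.40 to 3.69 against 3.61 to 3.75 at birth. They also overlapped for the macrophage marker C1qa, at -0.37 to 0.49 against -0.37 to 0.27 at birth. Their part in the change of Hspb1, Hspb6 and Hspb8 was not tested.

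At 1 week no member differed between KI and WT by the test, and the direction of the values depended on the record. By the value table all 8 members were above 0 in KI minus WT, with a median of +0.30 and a range of 0.21 to 0.62. Of all tested genes 54.4% were above 0, and their median was +0.03. None of the 8 was called (adjusted p of 0.686 to 0.720, limma), where 0.0508% of all tested genes were called, and 1 member, Bag3, had an unadjusted p under 0.05, as 7.06% of all genes had. For 7 of 8 members, all but Hspb8, both KI arrays were above both WT arrays, which held for 19.8% of tested genes.

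**Figure D3:**
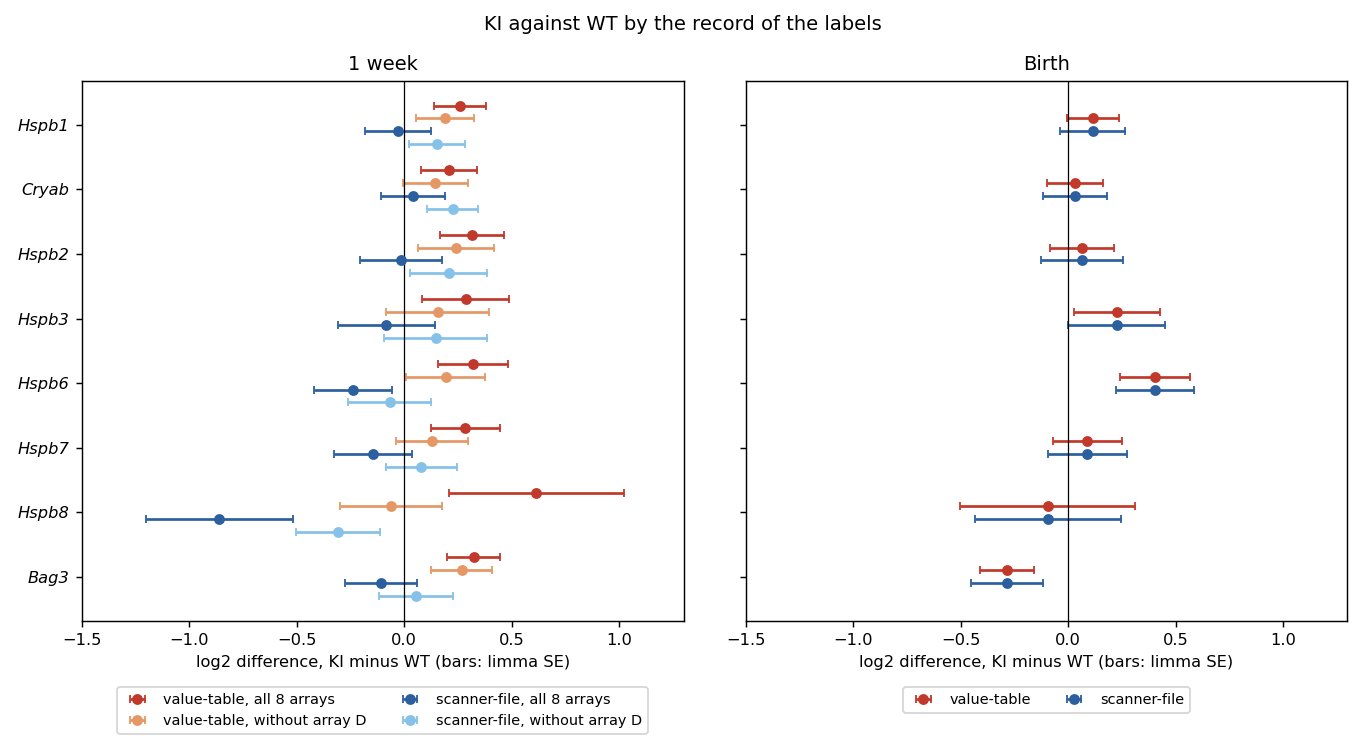
Log2 difference, KI minus WT (horizontal axis), at 1 week and at birth for each gene; points are limma estimates and bars their standard errors. At 1 week colours give the value-table record and the scanner-file record, each with all 8 arrays and without array D, and at birth the 2 records. At 1 week all 8 genes lie above 0 by the value table and 7 of 8 below 0 by the scanner files, and at birth Hspb6 is the highest and Bag3 the lowest.

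The 1-week values of single members were close to each other. Bag3 was at +0.32 ± 0.12 (SE) with a 95% interval of 0.03 to 0.62, Hspb6 at +0.32 (-0.07 to 0.71), Hspb2 at +0.32 (-0.04 to 0.67), Hspb3 at +0.29 (-0.19 to 0.76) and Hspb7 at +0.29 (-0.09 to 0.66). Hspb1 was at +0.26 (-0.03 to 0.55) and Cryab at +0.21 (-0.10 to 0.52). Hspb8 had the largest value and the widest interval, +0.62 (-0.35 to 1.58).

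By the scanner-file record 1 of 8 members, Cryab, was above 0. The median was -0.09 and the range -0.86 to 0.04, against a median of 0.00 over all tested genes, of which 50.6% were above 0. None was called, where 0.00635% of tested genes were called, and 1 member, Hspb8, had an unadjusted p under 0.05, as 9.87% of tested genes had. Hspb8 was the lowest at -0.86 ± 0.34 (SE), with both KI arrays (C and D) below both WT arrays (A and B), as for 19.9% of tested genes, and did not pass (adjusted p = 0.494, limma). It did pass in this record when array C was left out, at -1.41 (adjusted p = 0.0493, limma), where D is then the only KI array and its spread is taken from the other groups. In that fit 160 of 15757 tested genes were called, against 1 with all arrays.

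Array D, WT by one record and KI by the other, was the lowest of the 4 arrays of 1 week on 10 of 10 member probes. Of all tested genes 39.0% were lowest on D, 19.2% on A, 21.2% on B and 20.5% on C. D minus the mean of A, B and C had a median of -0.34 over the members, against -0.03 over all tested genes, and ranged from -0.22 for Cryab to -1.31 for Hspb8. Without D, by the value table, 7 of 8 members were above 0 in KI minus WT at 1 week, with a median of +0.17, a range of -0.06 to 0.27 and none called. Without D, by the scanner files, 6 of 8 were above 0, with a median of +0.11, a range of -0.31 to 0.23 and none called. Without D, A was the only WT array of 1 week by the value table and C the only KI array by the scanner files. Among the 1-week arrays the mean log2 levels of atrial and adipocyte markers given above were lowest on A and highest on D. Both are WT arrays by the value table, and B and C lay between them. The summed atrial level was 62.0 on A, 399 on B, 473 on C and 469 on D. The summed adipocyte level was 182 on A, 177 on B, 248 on C and 253 on D. On A and on every birth array 2 of 6 adipocyte markers were well above background, against 6 of 6 on B, C and D. The part of these markers in the members' values was not tested.

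At birth no member differed between KI and WT by the test (adjusted p of 1.00 for each, limma), where 0.0381% of all tested genes were called, and 0.0% in the fit by the scanner-file record. At an unadjusted p under 0.05 there was 1 member by the value table, Hspb6, where 4.71% of tested genes passed, and 0 by the scanner files, where 4.3% did. Hspb6 was at +0.41 ± 0.16 (SE), with a 95% interval of 0.02 to 0.79 and both KI arrays above both WT arrays. Bag3 was at -0.28 ± 0.12 (-0.58 to 0.01), with both KI arrays below both WT arrays. Hspb1 was at +0.11 (-0.17 to 0.40), and its KI arrays too lay above its WT arrays. Those are 2 members whose arrays were all higher and 1 whose arrays were all lower, as were 16.7% and 15.2% of tested genes. The other 5 overlapped, and their differences were +0.03 for Cryab, +0.07 for Hspb2, +0.09 for Hspb7, +0.23 for Hspb3 and -0.09 ± 0.41 for Hspb8. Over all 8 members the median was +0.08, against 0.00 over all tested genes.

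The difference between KI and WT was itself compared between the ages, as KI minus WT at 1 week less that at birth. No member passed (adjusted p of 0.876 to 0.976, limma), where 0.00635% of tested genes were called, and 0.0% by the scanner-file record. At an unadjusted p under 0.05 there was 1 member by the value table, Bag3, where 4.85% of tested genes passed, and 1 by the scanner files, Hspb6, where 6.29% did. Bag3 had +0.61 ± 0.18 (SE), with a 95% interval of 0.19 to 1.02, and by the scanner-file record +0.18 ± 0.24, with an interval of -0.38 to 0.74. By the value table its KI arrays were both above the WT arrays at 1 week and both below them at birth. Hspb8 had +0.71 ± 0.58 by the value table and -0.77 ± 0.48 by the scanner files. Hspb6 had -0.08 ± 0.23 by the value table and -0.64 ± 0.26 by the scanner files (adjusted p = 0.781, limma).

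Deviations of the members from the mean of each age ran together. Pearson's r between members over 8 arrays, after each age was centred, was above 0 in all 28 pairs, from 0.12 for Hspb6 and Bag3 to 0.92 for Hspb3 and Hspb7. Hspb7 was also close to Hspb2 at 0.90 and Hspb1 at 0.89, and Hspb8 was closest to Hspb7 at 0.83. Without centring, r for Hspb1 was -0.81 with Hspb6 and -0.67 with Hspb8, while Hspb6 and Hspb8 had 0.86. The points share the array and its scaling, and array D is the lowest 1-week point for each gene, so these values only describe the 8 arrays.

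Among 14376 other genes, the pattern closest to a member over 8 arrays was that of Ears2 for Hspb1 (Pearson's r 0.998), Pdlim1 for Hspb8 (0.985), Adcyap1r1 for Hspb6 (0.988), Cdkn2d for Hspb2 (0.987), Steap1 for Cryab (0.984), Chml for Hspb7 (0.975), Purb for Hspb3 (0.971) and Ndc1 for Bag3 (0.952). With each age centred, Steap1 and Chml were again the closest to Cryab (0.992) and Hspb7 (0.992). The closest gene was then Manf for Hspb1 (0.987), Rnpc3 for Hspb2 (0.995), Fam78a for Hspb3 (0.995), Shprh for Hspb6 (0.989), Sdhaf2 for Hspb8 (0.999) and Yipf4 for Bag3 (0.968). Each is the highest of many values over 8 arrays and carries no test.

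Around the members, a list of 66 genes of the chaperone network in 9 roles was read in the same fits, with a probe for 65 and 64 tested. Cryaa, the lens crystallin, did not pass the filter on dim probes, and Dnajb5 had no probe. Over both genotypes 9 of 64 were higher at 1 week and 5 lower, with a median of -0.12, against -0.03 for all tested genes, of which 29.3% were called. In KI 2 were higher and 0 lower, where 10.6% of all tested genes were called, and in WT 7 were higher and 2 lower, where 19.0% were. By the scanner-file record the counts over both genotypes were 9 higher and 9 lower, where 30% were called. In that record 5 were higher and 2 lower in KI, where 15.3% of all tested genes were called. In WT 3 were then higher and 1 lower, where 12.7% were called, so which genotype had more calls depended on the record.

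**Figure D4:**
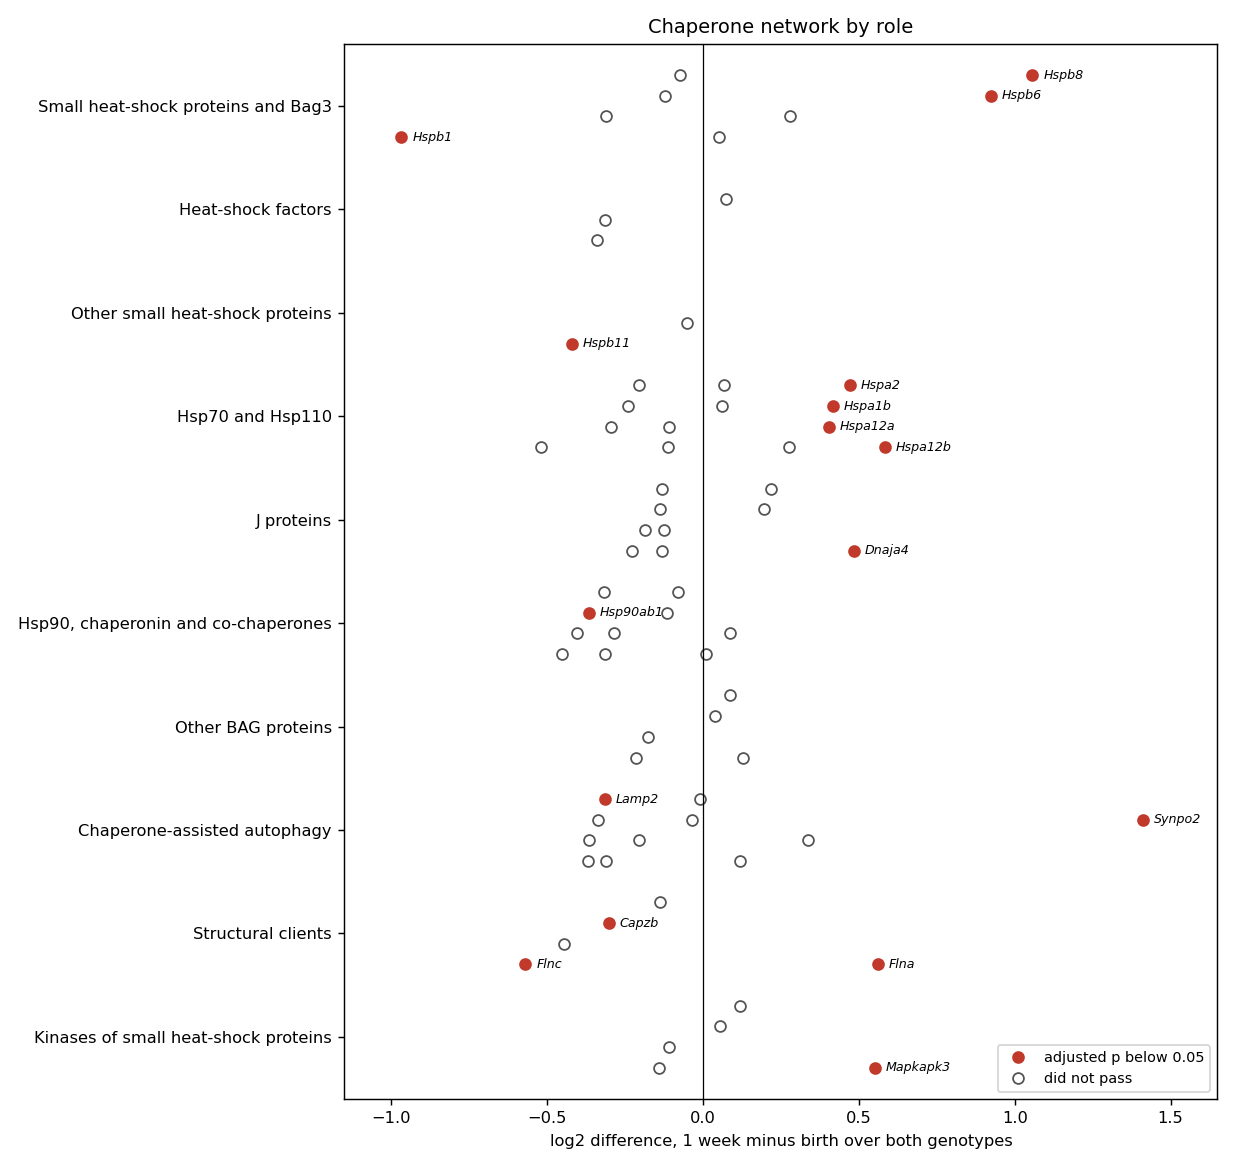
Log2 difference, 1 week minus birth over both genotypes (horizontal axis), for the 8 members and tested genes of the chaperone network, by role. Each point is a gene and filled points passed the adjusted threshold of 0.05. Synpo2 lies farthest to the right at +1.41 and Hspb1 farthest to the left at -0.97.

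Of the 11 genes of chaperone-assisted autophagy, the route that BAG3 and HSPB8 feed, 1 rose and 1 fell. Synpo2 encodes myopodin (synaptopodin 2), a Z-disc protein that binds BAG3 and leads its cargo to the membrane of the forming autophagosome. Its levels were -0.06 on B and -0.21 on C in KI at 1 week and 0.02 on A and 0.10 on D in WT at 1 week, against -1.46 and -1.72 in KI at birth and -1.09 and -1.51 in WT at birth. All arrays of 1 week were higher than those of birth, as for 16.2% of tested genes. Array D was here the highest of the 4. The difference was +1.41 ± 0.13 (SE), or 2.66-fold higher at 1 week (adjusted p = 0.000474, limma). It was 1.46 in KI (adjusted p = 0.00425, limma) and 1.36 in WT (adjusted p = 0.00413, limma), and by the scanner-file record 1.54 in KI and 1.28 in WT, both past the threshold. Lamp2, a lysosome membrane protein, fell by 0.32 (adjusted p = 0.0354, limma). Becn1, an autophagy initiation factor, was at -0.34 over both genotypes (adjusted p = 0.0504, limma) and fell by 0.63 in WT (adjusted p = 0.0286, limma). In the scanner files' record Becn1 did not pass in WT, at -0.43 (adjusted p = 0.246, limma).

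Structural clients were called in both directions. The filamin C gene Flnc, whose product is the muscle filamin cleared by BAG3 and HSPB8, fell by 0.57 ± 0.12 (SE) at 1 week (adjusted p = 0.0157, limma). Flna, a filamin of many cell types, rose by 0.56 (adjusted p = 0.0056, limma). The fibroblast and endothelial marker sums given above were also higher at 1 week, and their part in the change of Flna was not tested. Capzb, an actin-capping subunit that BAG3 binds, fell by 0.30 (adjusted p = 0.0299, limma).

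Of the 13 genes of the Hsp70 and Hsp110 group, 4 rose and none fell. Hspa12b, a member known from endothelial cells, rose by 0.58, Hspa2 by 0.47, Hspa1b by 0.42 and Hspa12a by 0.40, with adjusted p of 0.00939 to 0.0259 (limma). Hspa1a and Hspa1b are near-identical stress-inducible copies whose probes may read each other's transcripts, and Hspa1a did not pass at +0.27, so the call of Hspa1b is uncertain. Of 9 tested J proteins 1 rose, Dnaja4 by 0.48 (adjusted p = 0.0115, limma). Of 10 genes of the Hsp90, chaperonin and co-chaperone group 1 fell, Hsp90ab1, the constitutive cytosolic Hsp90, by 0.37 (adjusted p = 0.0389, limma). In the scanner-file fit 3 of these 10 fell.

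Of 5 kinases of small heat-shock proteins 1 rose, Mapkapk3, one of the kinases that phosphorylate HSP27, by 0.55 (adjusted p = 0.016, limma). None of the 3 heat-shock factors passed, with Hsf1 at +0.07, Hsf2 at -0.32 (adjusted p = 0.0532, limma) and Hsf4 at -0.34. In the fit by the scanner-file record Hsf2 passed (adjusted p = 0.0343, limma). None of the 5 other BAG genes passed, and the lowest adjusted p was that of Bag6 at -0.18 (adjusted p = 0.199, limma). Of the 2 tested genes in the role of other small heat-shock proteins, Hspb11 fell by 0.42 (adjusted p = 0.0231, limma). Despite its symbol, Hspb11 encodes a subunit of the intraflagellar transport complex.

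No gene of the network list was called between KI and WT at 1 week, at birth or in the difference of both, in either record. At an unadjusted p under 0.05 there were 3 of 64 at 1 week, 0 at birth and 2 for the difference by the value table, where 7.06%, 4.71% and 4.85% of all tested genes passed. By the scanner files there were 7 at 1 week, 0 at birth and 3 for the difference, where 9.87%, 4.3% and 6.29% passed. At 1 week 42 of 64 were above 0 in KI minus WT by the value table, with a median of +0.08, and 19 of 64 by the scanner files, with a median of -0.07. Of all tested genes 54.4% were above 0 by the value table and 50.6% by the scanner files. All 10 genes of the Hsp90, chaperonin and co-chaperone group were above 0 by the value table, with a median of +0.12, and 3 of 10 by the scanner files. The genes with the smallest unadjusted p at 1 week by the value table were Becn1 at +0.43, Hspa1a at -0.54 and Hspa1l at +0.48 (adjusted p = 0.686 each, limma).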

How the data were processed

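RNA of mouse ventricles was measured on 8 one-colour (Cy3) Agilent arrays, 2 in each of 4 groups. Per the file headers, Agilent Feature Extraction 11.0.1.1 read the arrays against build mm9, and the submitters' processing notes name version 9.1. The deposited scanner files give each spot's background-corrected intensity and flags for saturation, outliers and being well above background, and the deposited table of processed values equals the scanner intensity within a relative tolerance of 0.0001. No aligner applies.

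Control spots and flagged outliers were left out and spots of a probe averaged. Of 56605 probes, 15 lacked a usable spot on some array and were dropped. The log2 intensity minus the array's 75th percentile was computed from the deposited intensity. The brightest probe stood for a gene. A gene was tested if both arrays of some group measured it well above background, which gave 15744 genes by the value-table record and 15757 by the scanner-file record. The test was limma 3.58.1 in R 4.3.3 on 4 group means (4 residual degrees of freedom), and p-values were adjusted over all of them. Single genes were compared between ages by an exact permutation test. The fit was tested on simulated data. The number of arrays limits the precision.

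Named were all 8 members, the genes of the chaperone list that passed and otherwise up to 3 a role with the smallest p, and the gene most like each member. The members and lists were chosen with earlier results of these data known. The alternatives were the record of genotype, the deposited table, normexp with an offset of 50, quantile scaling, the percentile over detected probes, other filters on dim probes, the mean of probes, only the arrays compared, a replicate block, an eBayes trend and single arrays left out. The same alternatives in the scanner-file record were added after seeing the data. The result of 1 gene of the chaperone list is not reported here and is not drawn.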

Additional observations from a re-analysis of the deposited data

Results flagged for a closer look

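Bag3 was marked because its difference between KI and WT ran in opposite directions at the 2 ages by the value-table record. At 1 week both KI arrays (5.13 and 5.02) lay above both WT arrays (4.81 and 4.70), and at birth both KI arrays (4.53 and 4.45) lay below both WT arrays (4.84 and 4.71). The first held for 19.8% of tested genes and the second for 15.2%. The test of the difference between the ages gave +0.61 ± 0.18 (SE) and did not pass (adjusted p = 0.876, limma). By the scanner-file record it was +0.18 ± 0.24 (adjusted p = 0.941, limma), and the KI and WT arrays of 1 week overlapped.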

How the results depend on the processing

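The direction of a member's difference between KI and WT at 1 week depended most on the record. By the scanner files it was -0.028 for Hspb1, -0.016 for Hspb2, -0.083 for Hspb3, -0.24 for Hspb6, -0.14 for Hspb7, -0.86 for Hspb8 and -0.11 for Bag3, all above 0 by the value table. The difference of that difference between ages was likewise -0.14 for Hspb1, -0.082 for Hspb2, -0.31 for Hspb3, -0.23 for Hspb7 and -0.77 for Hspb8. The number of members called in KI between ages was 1 by the scanner files, against 3, and 0 to 4 as single arrays were left out (0 without array B, and 1 without C or either KI array of birth). In WT it was 1 with the mean of probes, against 2, and 1 to 3 with single arrays left out (1 without the second WT array of birth, 3 without D). Over both genotypes it was 5 with an eBayes trend, against 3, and 2 to 3 with single arrays left out. Counts over all tested genes moved too. With the mean of probes 2745 of 15754 were called in WT, against 2988 of 15744. With an eBayes trend 5195 were called over both genotypes, against 4608. By the scanner files 2405 of 15757 were called in KI, against 1670. These counts also moved with single arrays left out. The exact test passed 1 member with the mean of probes, against 2. By the scanner files 0 to 1 members were called at 1 week with single arrays left out (1 without C).

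Members near 0 changed sign. Between ages in KI, Cryab was at 0.014 with normexp and 0.016 with quantile scaling, and Hspb7 at -0.066 by the scanner files. In WT, the scanner files gave 0.080 for Hspb3, 0.17 for Hspb7 and 0.19 for Bag3, the percentile over detected probes 0.024 for Hspb7 and 0.046 for Bag3, and quantile scaling 0.13 for Bag3. Over both, Hspb7 was at -0.025 with normexp and at -0.029 with the mean of probes. For the difference between ages in KI minus WT, Hspb3 was at -0.0042 with quantile scaling and Hspb6 at 0.19 with the mean of probes. With single arrays left out the ranges at birth were -0.016 to 0.084 for Cryab, -0.069 to 0.20 for Hspb2, -0.015 to 0.47 for Hspb3, -0.053 to 0.23 for Hspb7 and -0.30 to 0.11 for Hspb8. At 1 week Hspb8 ranged from -0.061 to 1.29. The difference between ages in KI minus WT ranged from -0.18 to 0.30 for Hspb3 and -0.23 to 0.066 for Hspb6. Between ages in KI, Cryab ranged from -0.14 to 0.068 and Hspb3 from -0.19 to 0.10. In WT, Hspb3 ranged from -0.35 to 0.14, Hspb7 from -0.20 to 0.11 and Bag3 from -0.087 to 0.038. Over both, Hspb3 ranged from -0.20 to 0.046 and Hspb7 from -0.026 to 0.13. The cause of these changes was not tested.

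Deviations of same-numbered arrays from their group means had correlations of -0.14 to 0.29 between groups by the value-table record. These values cannot exclude a pairing of the samples, and the main fit used none. With a replicate block 0 members were called between KI and WT at either age, 4 between ages in KI, 2 in WT and 3 over both. Of 15744 tested genes 1576 were then called between ages in KI, 2899 in WT and 4628 over both. Between KI and WT 0 of them were called at birth and 10 at 1 week. A fit of only the arrays compared gave no value over both genotypes or for the difference between ages, and the exact test was not run with an array left out: its two-sided p is double the smaller one-sided p, which cannot pass with 3 against 4 arrays.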
